A study of Homo sapiens with 30 samples.

Results

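Neurotransmitter receptor genes were taken by symbol from the protein-coding RefSeq genes of hg38: ionotropic glutamate (GRIA, GRIK, GRIN, GRID), metabotropic glutamate (GRM), GABA-A and GABA-B (GABR, GABBR), glycine (GLR), nicotinic (CHRN), muscarinic (CHRM), serotonin (HTR), dopamine (DRD) and adrenergic (ADRA, ADRB) receptors. The symbols matched 104 of 20033 protein-coding genes. All but 1 encode receptors or receptor subunits: GRID2IP, a scaffold protein, was matched by its symbol. The series profiled 30 CUT&RUN libraries from a monolayer of neural progenitor cells made from the human embryonic stem cell line H9, in wild-type and RING1- or RNF2-edited genotypes. The values here come from the wild-type cells, unedited and kept in N2/B27/FGF medium, with antibodies against RING1 and against RNF2. Each antibody has 2 peak lists, called A and B here by the number the deposited lists carry; neither number appears in the labels, which also do not say that replicates are separate cultures. No untreated or IgG peak list and no edited genotype was analysed here, so there is no comparison between genotypes.

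RING1 and RNF2 are alternative catalytic subunits of Polycomb repressive complex 1, which attaches ubiquitin to histone H2A and keeps developmental genes silent, mostly at CpG-rich promoters. Neurotransmitter receptors are either ligand-gated ion channels assembled from subunits or G protein-coupled receptors, and many of their genes are switched on as progenitors become neurons. CUT&RUN cuts out the DNA next to an antibody-bound protein, and a peak marks a stretch where the cut fragments exceed background. A peak shows where the protein was, not whether the gene was transcribed, so the lists cannot check the cell type. Of 8 neural progenitor markers 6 had an RNF2 peak in list A, and of 6 neuron markers 3 did, where 56.1% of all protein-coding genes had one; in list B it was 3 of each, where 21.7% of all genes had one.

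A gene was counted when a peak lay within 2 kb of either annotated gene end, and a gene said below to have no peak had none there. The fold enrichment over background and the significance (−log10 of the q-value) of each peak are the authors' values, used only within a list. Where a gene had several peaks, the highest fold and the widest peak are given. The lists differ in length, with 12891 RING1 peaks in list A and 659 in list B, and 16263 RNF2 peaks in list A and 5901 in list B; sequencing depth is unknown, and a gene without a peak may lie below what a list could call. Therefore the receptor genes' share was read against the share of all protein-coding genes, receptor genes included, in the same list. Genes are not replicates, and none of the differences below between receptor genes and other genes was tested.

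RNF2 was found in both lists at 33 of 104 receptor genes and RING1 in list A at 43, while RING1 in list B was at none. RNF2 was called at 51 of 104 receptor genes (49.0%) in list A, where 56.1% of all protein-coding genes were called, and at 36 (34.6%) in list B, where 21.7% were. RING1 was called at 43 receptor genes (41.3%) in list A, against 45.6% of all genes. In list B RING1 was at 0 receptor genes, against 1.32% of all genes. The shares in list A therefore lay near or below the background, and the RNF2 share in list B lay above it. That order turned round among stronger peaks: with −log10 q of at least 5, RNF2 of list B was at 0.962% of receptor genes, against 2.56% of all genes. RNF2 was called in both lists at 33 receptor genes (31.7%), against 20.8% of all genes. Of the receptor genes with RNF2 in list A, 64.7% also had RNF2 in list B, against 37.0% of all genes with RNF2 in list A; of those with RNF2 in list B, 91.7% also had it in list A, against 95.8% of all such genes. The authors' consolidated region file, whose making is not described in the sources used here, reached 34 receptor genes (32.7%), against 21% of all genes.

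RING1 and RNF2 shared most of their genes in list A, at receptor genes as over all genes. Of the receptor genes with RING1 93.0% also had RNF2, against 94.3% of all genes with RING1, and of those with RNF2 78.4% also had RING1, against 76.7%. Both proteins were called at 40 receptor genes (38.5%), against 43% of all genes, RNF2 without RING1 at 11 (10.6%, against 13.1%), and RING1 without RNF2 at 3 (2.88%, against 2.61%), namely GRIN3B, CHRM1 and HTR5A. RNF2 in list B but not in list A stood at another 3, DRD2, CHRNA3 and HTR6 (2.88%, against 0.904%). Of the 40, 31 also had RNF2 in list B, so these 31 stood in 3 lists (29.8% of receptor genes, against 19.1% of all genes). Another 11 stood in 2 lists and 15 in 1 list, for which the shares of all genes are not given here. A further 47 had no peak in any list (45.2%, against 40.6% of all genes). No receptor gene stood in all 4 lists, against 1.28% of all genes, or in both RING1 lists, against 1.31%, since RING1 of list B met none.

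**Figure D1:**
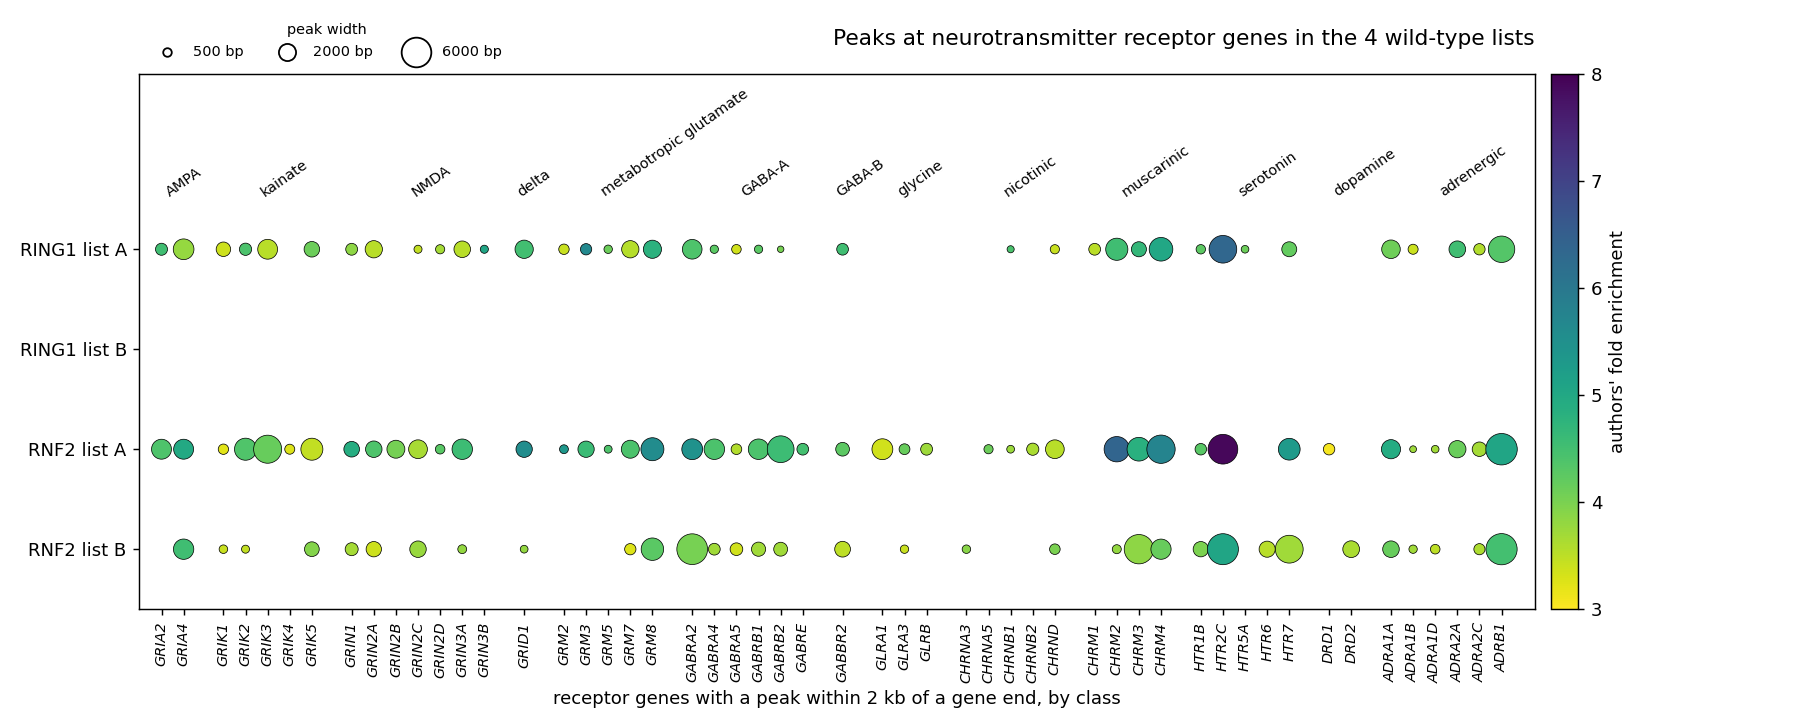
Each circle is a receptor gene called in a peak list (a few genes are not shown), placed by gene (x axis, grouped by receptor class) and peak list (y axis); its area is the width of the widest peak in bp and its colour the authors' fold enrichment of the strongest peak. The row for RING1 list B is empty, and HTR2C has the highest RNF2 fold enrichment in both lists, 7.91 and 5.06.

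**Figure D2:**
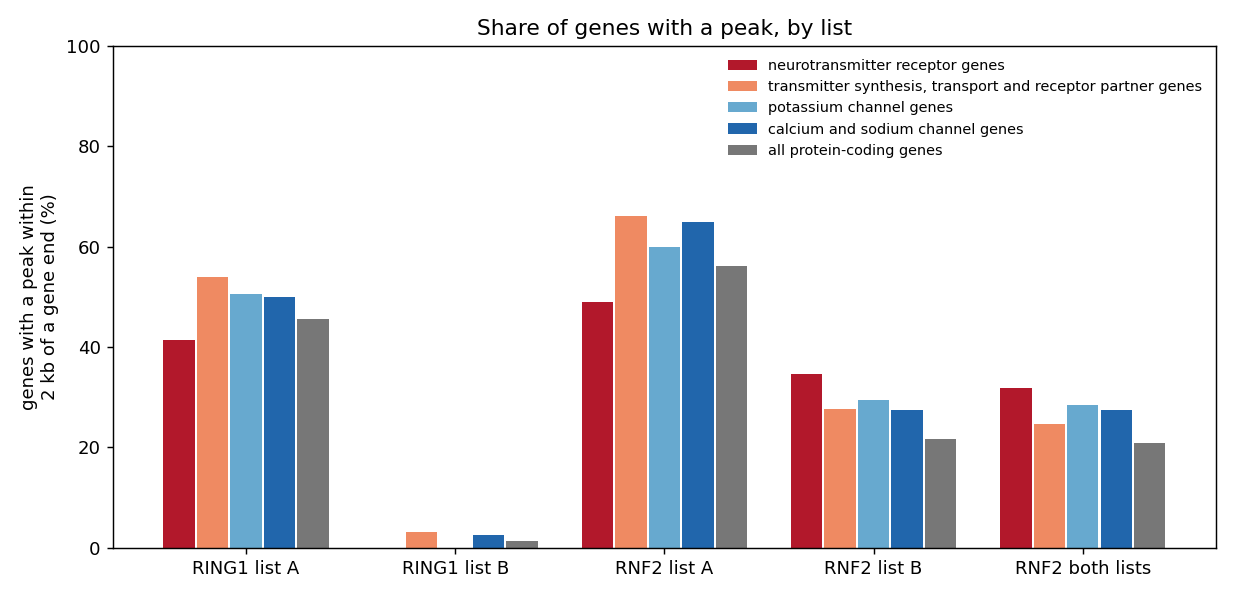
Bars give the percentage of genes with a peak within 2 kb of a gene end (y axis) in each list and in both RNF2 lists (x axis), for receptor genes, for 3 other groups of neural genes and for all protein-coding genes. Receptor genes stand at 49.0% against 56.1% of all genes for RNF2 in list A and at 34.6% against 21.7% in list B.

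The promoters of HTR2C, CHRM2, GRM8 and GABRA2 are shown because an RNF2 peak overlapped each of them in both lists and a RING1 peak did in list A. Those of DRD5 and HTR1A are shown because neither gene had a peak in any list. All 6 were chosen after their values were seen. Each runs 5′ to 3′ from 250 bases before the annotated start to 50 after it (RefSeq, GRCh38.p14, the assembly behind hg38), and capitals mark every CG dinucleotide.
HTR2C (chrX:114583836-114584135, + strand): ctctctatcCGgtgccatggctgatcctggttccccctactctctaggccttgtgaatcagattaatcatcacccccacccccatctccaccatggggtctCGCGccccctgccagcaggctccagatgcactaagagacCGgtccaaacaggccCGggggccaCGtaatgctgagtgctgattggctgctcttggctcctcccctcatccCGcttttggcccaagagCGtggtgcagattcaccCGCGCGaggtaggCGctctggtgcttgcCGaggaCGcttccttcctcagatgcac
CHRM2 (chr7:136868402-136868701, + strand): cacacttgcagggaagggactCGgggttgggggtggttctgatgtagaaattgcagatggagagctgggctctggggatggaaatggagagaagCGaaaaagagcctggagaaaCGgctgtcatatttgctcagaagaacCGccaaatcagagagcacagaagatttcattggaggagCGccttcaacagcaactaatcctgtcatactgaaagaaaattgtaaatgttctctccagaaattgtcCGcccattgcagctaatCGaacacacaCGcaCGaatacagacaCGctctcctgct
GRM8 (chr7:127252892-127253191, − strand): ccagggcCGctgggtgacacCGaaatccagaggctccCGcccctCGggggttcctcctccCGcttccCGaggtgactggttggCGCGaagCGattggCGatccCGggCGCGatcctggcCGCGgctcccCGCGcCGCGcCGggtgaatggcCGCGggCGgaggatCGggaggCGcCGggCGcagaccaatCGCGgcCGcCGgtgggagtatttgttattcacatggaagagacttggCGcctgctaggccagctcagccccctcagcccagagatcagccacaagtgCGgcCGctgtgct
GABRA2 (chr4:46390251-46390550, − strand): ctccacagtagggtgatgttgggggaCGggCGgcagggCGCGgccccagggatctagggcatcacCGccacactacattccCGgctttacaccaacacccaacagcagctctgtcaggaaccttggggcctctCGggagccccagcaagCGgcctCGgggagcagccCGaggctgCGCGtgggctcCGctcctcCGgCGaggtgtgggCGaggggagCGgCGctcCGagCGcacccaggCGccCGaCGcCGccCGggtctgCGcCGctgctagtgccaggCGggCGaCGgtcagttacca
DRD5 (chr4:9781384-9781683, + strand): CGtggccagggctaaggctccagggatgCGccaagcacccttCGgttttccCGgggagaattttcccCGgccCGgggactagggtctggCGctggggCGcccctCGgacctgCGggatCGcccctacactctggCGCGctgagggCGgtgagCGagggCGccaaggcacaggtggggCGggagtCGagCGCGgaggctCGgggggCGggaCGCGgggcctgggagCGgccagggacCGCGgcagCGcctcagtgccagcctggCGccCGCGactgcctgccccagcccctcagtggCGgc
HTR1A (chr5:63962396-63962695, − strand): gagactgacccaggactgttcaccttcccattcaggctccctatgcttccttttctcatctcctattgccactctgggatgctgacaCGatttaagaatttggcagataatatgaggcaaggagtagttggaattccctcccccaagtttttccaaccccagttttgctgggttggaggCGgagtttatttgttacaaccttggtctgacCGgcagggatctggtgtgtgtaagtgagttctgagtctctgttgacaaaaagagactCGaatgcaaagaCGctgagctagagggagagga

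These windows differ widely in CG dinucleotides. GRM8 holds 34, DRD5 32, GABRA2 30, HTR2C 14, CHRM2 10 and HTR1A 5. The window of DRD5, with no peak, is thus as CG-dense as those of GRM8 and GABRA2, and CHRM2 carried RNF2 with few. The RNF2 peak of list A reached 3965 bp upstream and 2043 bp downstream of the annotated start at HTR2C, and 350 bp upstream and 4022 bp downstream at CHRM2. At GRM8 it reached 1656 bp upstream and 1941 bp downstream, and at GABRA2 1357 and 1597 bp.

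The RNF2 peaks at receptor genes were wide for a called gene, and their fold enrichment was ordinary. The widest RNF2 peak per receptor gene had a median of 2193 bp in list A (lowest 317, highest 6744), against 1184 bp over all genes with an RNF2 peak, and 1341.5 bp in list B (lowest 410, highest 6633), against 921 bp. A peak of 2 kb or wider stood at 27 of the 51 receptor genes with RNF2 in list A (52.9%), against 24.6% of all called genes, and at 9 of 36 in list B (25%), against 22.4%. The RNF2 fold enrichment had a median of 4.40 at receptor genes in list A, against 4.33 over all genes with a peak, and of 3.72 in list B, against 3.85. For RING1 in list A the median width was 989 bp at receptor genes, against 824 bp, and the median fold enrichment 4.12, against 4.19. No receptor gene came near the extreme of either scale: the highest RNF2 fold enrichment of any gene in list A was 20.3, against 7.91 at HTR2C.

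**Figure D3:**
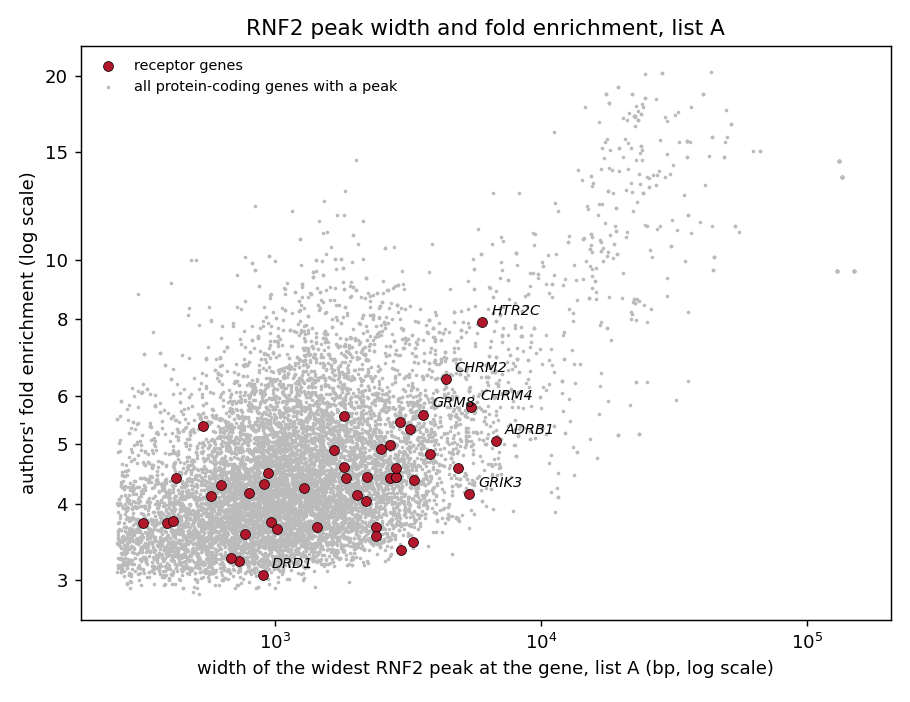
Each point is a gene with an RNF2 peak in list A, placed by the width of its widest peak (x axis, bp, log scale) and the authors' fold enrichment of its strongest peak (y axis, log scale), with receptor genes, a few of them not marked, in red over all protein-coding genes in grey. Receptor genes lie between 317 and 6744 bp and reach a fold enrichment of 7.91, and the points above that are all other genes.

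Few of these peaks were highly significant. For RNF2 in list A, 7 receptor genes had a peak with −log10 q of 5 or more (among them GRID1, CHRM2, CHRM4, GABRA2, GRM8 and HTR2C), which is 13.7% of those with a peak, against 28.01% of all genes with a peak. In list B only HTR2C reached it (2.78%, against 11.8%), and for RING1 in list A HTR2C and GRM3 did (4.65%, against 17.4%). HTR2C ranked 556th by RNF2 fold enrichment among 11235 called genes in list A and 530th among 4342 in list B.

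Across the 33 receptor genes with RNF2 in both lists, the fold enrichments of lists A and B had a Pearson correlation of 0.67 and a Spearman correlation of 0.59, and the widths 0.61 and 0.53. Over all 4161 genes with RNF2 in both lists the fold enrichment gave 0.73 and 0.50, and the width 0.89 and 0.65. Between RING1 and RNF2 of list A the fold enrichment gave 0.65 and 0.51 over 40 receptor genes, against 0.84 and 0.67 over all 8619 genes with both. The points are genes of the same libraries and not replicates, neighbours such as GABRA4 and GABRB1 share a peak, and the correlations are descriptions.

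The plot by class gives the RNF2 calls of each receptor class, to be read against 56.1% of all genes in list A and 21.7% in list B; differences between classes were not tested. Genes of ionotropic glutamate receptors (without GRID2IP) had RNF2 at 15 of 18 members in list A and at 10 in list B. Adrenergic receptor genes had it at 7 and 5 of 9, muscarinic at 3 and 3 of 5, and GABA-A at 8 and 7 of 19. The shares were lowest for nicotinic genes, with 4 and 2 of 16, for serotonin genes, with 3 and 4 of 17, and for dopamine genes, with 1 and 1 of 5. Read by mechanism, RNF2 stood in both lists at 14 of 41 genes of G protein-coupled receptors (34.1%) and at 19 of 62 genes of channel subunits (30.6%). These shares lay close to each other, and 20.8% of all genes had RNF2 in both lists.

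**Figure D4:**
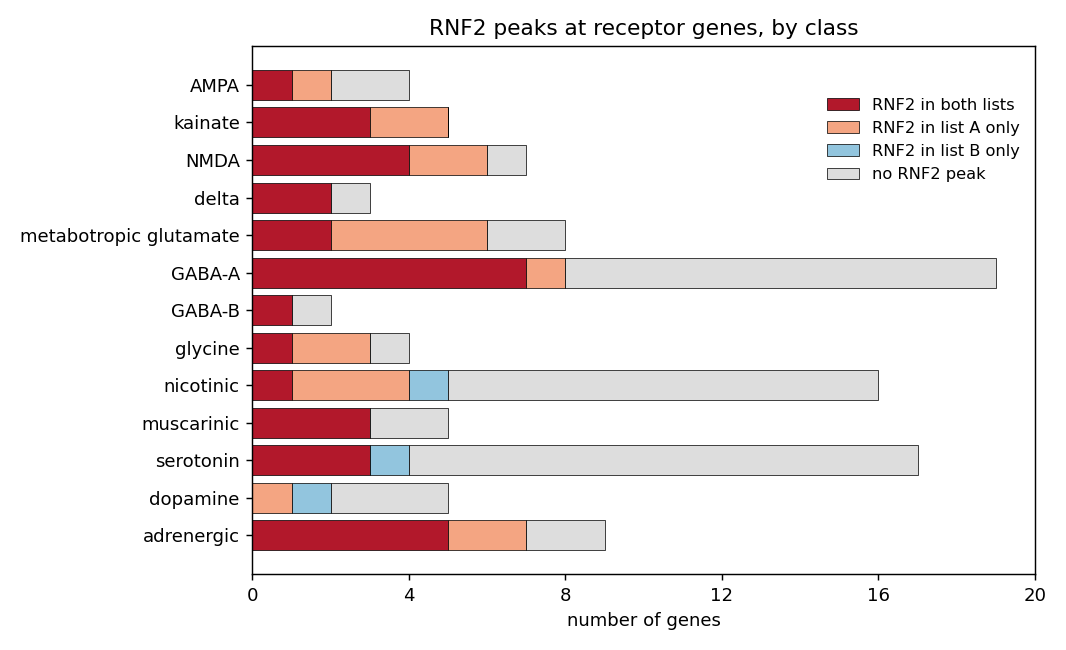
Stacked bars count the genes of each receptor class (y axis) by RNF2 peaks in both lists, in list A only, in list B only or in neither (x axis, number of genes). All 5 kainate receptor genes have RNF2 in list A, whereas 11 of 16 nicotinic genes have RNF2 in neither set.

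AMPA receptor genes, which encode the channels of fast excitatory transmission, were split. GRIA4 had fold enrichments of 3.79 for RING1 in list A and of 4.99 and 4.53 for RNF2 in lists A and B, with RNF2 peaks of 2708 and 2821 bp at its start. GRIA2, the subunit that limits calcium entry, had 4.53 for RING1 and 4.40 for RNF2 in list A. In list B the nearest RNF2 peak to an end of GRIA2 lay at 2004 bp, just outside the window. GRIA1 and GRIA3 had no peak in any list.

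All 5 kainate receptor genes carried RNF2 in list A, and 3 did in list B. Kainate receptors act on both sides of the synapse. GRIK5 had fold enrichments of 4.12 for RING1 in list A and of 3.47 and 3.94 for RNF2 in lists A and B; its peaks lay at the 3′ end, and the RNF2 peak of list A was 3299 bp wide. GRIK2 had 4.42 for RING1 and 4.37 and 3.46 for RNF2, and GRIK1 had 3.38 for RING1 and 3.23 and 3.43 for RNF2. The RNF2 peaks of both were narrower in list B, at 439 bp against 3317 bp in list A for GRIK2 and at 500 bp against 730 bp for GRIK1. GRIK3 and GRIK4 had RNF2 in list A only (4.15 and 3.27), and the peak of GRIK3 was 5365 bp wide.

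NMDA receptor genes had RNF2 at 6 of 7 members in list A and at 4 in list B. NMDA receptors are coincidence detectors that pass calcium and need the shared subunit GRIN1. GRIN3A had fold enrichments of 3.54 for RING1 in list A and of 4.57 and 3.80 for RNF2 in lists A and B. GRIN1 had 3.86 for RING1 and 4.90 and 3.68 for RNF2. It had 2 RNF2 peaks in each list, and at least 1 of them in each list also met LRRC26 or TMEM210. GRIN2C had 3.46 for RING1 and 3.66 and 3.77 for RNF2. It also had 2 RNF2 peaks in each list, at least 1 of which met FDXR. The peaks with the quoted RNF2 folds started at 74842773 and 74842873, near the gene end at 74842023, and were not its widest. For GRIN1 and GRIN2C not every RNF2 peak can therefore be assigned to the receptor gene alone. GRIN2A had RNF2 in both lists (4.40 and 3.39), and GRIN2B and GRIN2D in list A only (4.04 and 4.30). GRIN2D had RNF2 peaks at both ends. The strongest started at 48445535, beyond the 3′ end at 48444931, and at least 1 of its RNF2 peaks also met GRWD1. GRIN3B had RING1 of list A (5.06, 447 bp) and no RNF2.

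Of the delta receptor genes, whose products organise synapses, GRID1 had fold enrichments of 4.52 for RING1 in list A and of 5.57 and 3.80 for RNF2 in lists A and B. Its RNF2 peak was 1818 bp wide in list A and 410 bp in list B. GRID2IP had no peak at its ends, and RING1 of list A and RNF2 of both lists inside its body.

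Metabotropic glutamate receptor genes had RNF2 at 6 of 8 members in list A and at 2 in list B. GRM8 and GRM7, presynaptic receptors of group III that dampen release, were the 2 in both lists. GRM8 had fold enrichments of 4.81 for RING1 in list A and of 5.59 and 4.27 for RNF2, with RNF2 peaks of 3598 and 3434 bp. GRM7 had 3.55 for RING1 and 4.42 and 3.27 for RNF2. The other group III genes, GRM4 and GRM6, had no peak at their ends, and GRM4 had RING1 of list A and RNF2 of both lists inside its body. GRM5 of group I and GRM2 and GRM3 of group II had RNF2 in list A only, at 4.40, 5.35 and 4.58.

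GABA-A receptor genes, which encode the main inhibitory chloride channels, lie mostly in clusters on chromosomes 4, 5, 15 and X, and within the clusters the subunit types differed. The beta genes GABRB1 and GABRB2 and the alpha genes GABRA2, GABRA4 and GABRA5 had RING1 of list A and RNF2 of both lists. The gamma genes GABRG1 and GABRG3 and the 3 rho genes had no peak at their ends in any list; GABRG3 had a RING1 peak of list A inside its body. On chromosome 4, GABRA2, GABRA4 and GABRB1 carried peaks and GABRG1 did not. On chromosome 5, GABRB2 did and GABRA6 did not, and on chromosome 15, GABRA5 did and GABRG3 did not. On chromosome X, GABRE had RNF2 in list A only (4.49, 937 bp), and GABRA3 and GABRQ had none. GABRD and GABRP had no peak either. This grouping by subunit was made after the values were seen.

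GABRA2 had fold enrichments of 4.40 for RING1 in list A and of 5.44 and 4.02 for RNF2 in lists A and B. Its RNF2 peak was 6438 bp wide in list B, against 2955 bp in list A. GABRA4 and GABRB1 lie on opposite strands with their annotated 5′ ends next to each other. They share a peak in each of the 3 lists that called them, with 4.28 for RING1 and 4.42 and 3.71 for RNF2. The RefSeq promoter start of GABRB1 lay 37.9 kb inside the gene, under another RNF2 peak of list A. GABRB2 had RNF2 fold enrichments of 4.58 in list A and 3.71 in list B, and GABRA5 had 3.57 and 3.37. Of the GABA-B genes, GABBR2 had 4.54 for RING1 and 4.25 and 3.49 for RNF2, and GABBR1, its obligate partner in the receptor, had no peak.

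Glycine receptor genes, which encode inhibitory channels of spinal cord and brainstem, had no RING1 in any list. GLRA3 had RNF2 at 4.17 in list A and 3.42 in list B. GLRB, the subunit anchored by gephyrin, had 3.74, and GLRA1 had 3.37 with a peak of 2967 bp, both in list A only. GLRA2 had none.

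Nicotinic acetylcholine receptor genes carried few peaks. Of the 5 genes of the muscle receptor (CHRNA1, CHRNB1, CHRND, CHRNE, CHRNG), 2 had RNF2 in list A, and of the 11 others 2 did. CHRND was the only nicotinic gene in both RNF2 lists, with fold enrichments of 3.41 for RING1 in list A and of 3.54 and 4.01 for RNF2; its peaks also met PRSS56. The RNF2 peak of list A lay 1765 bp from the end of CHRND, while CHRNG, its neighbour, was left out at 2043 bp. CHRNB1 had RING1 (4.44) and RNF2 (3.75) in list A at different ends, and its RING1 peak also met FGF11. In the cluster of CHRNA5, CHRNA3 and CHRNB4 on chromosome 15, CHRNA5 had RNF2 in list A (4.12) and CHRNA3 in list B (3.89). CHRNB4 had no peak at its ends, but an RNF2 peak of list A covered its RefSeq promoter start, 20.4 kb inside the gene. CHRNB2 had RNF2 in list A (3.64), and 11 nicotinic genes, among them CHRNA1, CHRNA2 and CHRNA4, had no peak in any list.

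Muscarinic receptor genes, G protein-coupled receptors of acetylcholine, had the widest median RNF2 peak of any class in list A, 4373 bp over 3 genes. In list B they did not, with 2784 bp over 3 genes, against 3516.5 bp over 4 serotonin genes and 2821 bp at 1 AMPA gene. CHRM4 had fold enrichments of 5.01 for RING1 in list A and of 5.75 and 4.16 for RNF2 in lists A and B, and its widest RNF2 peak of list A measured 5469 bp. Peaks of CHRM4 in all 3 lists also met DGKZ or MDK, so they cannot be assigned to CHRM4 alone. CHRM3 had 4.69 for RING1 and 4.82 and 3.85 for RNF2, and CHRM2 had 4.53 for RING1 and 6.39 and 3.80 for RNF2. The RNF2 peak of CHRM2 was 554 bp wide in list B, against 4373 bp in list A, and that of CHRM3 was 5864 bp, against 3825 bp. CHRM1 had RING1 of list A only (3.52), and CHRM5 had none at its ends and RING1 of list A and RNF2 of both lists inside its body.

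Serotonin receptor genes held the strongest receptor gene and many without peaks. HTR2C, a G protein-coupled receptor of the brain on chromosome X, had fold enrichments of 6.35 for RING1 in list A and of 7.91 and 5.06 for RNF2 in lists A and B, with peaks of 5203, 6009 and 6547 bp. HTR1B had 4.25 for RING1 and 4.30 and 3.98 for RNF2, and HTR7 had 4.20 for RING1 and 5.30 and 3.72 for RNF2. HTR5A had RING1 of list A only (4.12). HTR6 had RNF2 of list B only (3.55), at its 3′ end on a peak that also met TMCO4, and the nearest RNF2 peak of list A lay at 4484 bp. None of the 5 HTR3 genes, which encode the serotonin-gated channels, had a peak, and 12 of the 17 serotonin genes had none, among them HTR1A, HTR1D and HTR1E.

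Dopamine receptor genes had RNF2 at single members only. DRD1 had 3.06 in list A, the lowest RNF2 fold enrichment among receptor genes there, and DRD2 had 3.64 in list B and none in list A. DRD3, DRD4 and DRD5 had no peak in any list.

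Adrenergic receptor genes had RNF2 at 7 of 9 members in list A and at 5 in list B. ADRB1, the main beta receptor of the heart, lay whole inside 1 peak in the 3 lists that called it, with fold enrichments of 4.34 for RING1 in list A and of 5.06 and 4.49 for RNF2 in lists A and B. Its RNF2 peaks, 6744 and 6633 bp wide over a gene of 3039 bp, were the widest at any receptor gene in either list. ADRA1A had 4.09 for RING1 and 4.92 and 4.17 for RNF2, and ADRA1B had 3.40 for RING1 and 3.72 and 3.71 for RNF2. The counted peaks of ADRA1B lay near the annotated 3′ end, at 1751 bp in list A and 1610 bp in list B for RNF2. An RNF2 peak of list A also covered the RefSeq promoter start of ADRA1B, 51.4 kb inside the gene. ADRA2C (3.67 and 3.62) and ADRA1D (3.71 and 3.49) also had RNF2 in both lists, ADRA2A had it in list A only (4.14), and ADRA2B and ADRB3 had no peak.

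Peaks at receptor genes lay mostly at the 5′ end, as they did over all genes. The strand and a promoter were given for 77 of the 104 genes, and for 19 of these the RefSeq promoter start was not the outer end of the gene (for 12 it was over 2 kb away). Among those with a strand, RNF2 of list A lay at the 5′ end of 31 genes, at the 3′ end of 3 and at both ends of 4, and in list B at 18, 3 and 4; RING1 of list A lay at 26, 3 and 4. The 5′ end alone thus held 81.6% of these receptor genes for RNF2 in list A, against 82.3% of all genes, 72% in list B, against 78.3%, and 78.8% for RING1 in list A, against 81.5%. The 300-base promoter window itself was at least partly under an RNF2 peak at 33 of 77 receptor genes (42.9%) in list A, against 51.5% of all genes with a strand. In list B it was so at 16 (20.8%), against 16.1%. For RING1 in list A it was 23 (29.9%), against 38.8%, and in list B 0, against 0.518%. Where an RNF2 peak of list A covered the start, it reached farther downstream than upstream at 23 of 32 receptor genes (71.9%, against 52.2% of all genes), with medians of 1522 bp downstream and 669 bp upstream, against 583 and 567 bp over all genes. In list B the medians were 1168 and 830.5 bp over 14 receptor genes, 7 of which reached farther downstream (50%, against 53.7% of all genes), against 513 and 482 bp over all genes.

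Most receptor genes had their peaks to themselves. In list A, 8 of the 51 receptor genes with RNF2 (15.7%) had a peak that also met another protein-coding gene, against 37.5% of all genes with RNF2, and in list B 7 of 36 did (19.4%), against 38.6%. Receptor genes are also long. Their median length was 53.3 kb, against 24.1 kb over all genes, and 152 kb at the 33 with RNF2 in both lists, against 23.3 kb at the 50 with no RNF2 peak. Over all protein-coding genes these medians were 23.5 and 17.2 kb. The part of gene length in the counts was not tested.

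Receptor genes with RNF2 had more CpG in their promoters than those without, as all genes did. The observed over expected CpG of the promoter window had a median of 0.788 at the 23 receptor genes with RNF2 in both lists and a RefSeq promoter, 0.769 at the 15 with RNF2 in list A only, and 0.369 at the 37 without RNF2. Over all genes these medians were 0.847, 0.847 and 0.397. The ranges overlapped, from 0.358 to 1.08 at receptor genes with RNF2 in both lists and from 0.0442 to 0.972 at those without. A ratio of at least 0.6 was found at 41 of 77 receptor genes (53.2%), against 65.8% of all genes, and every receptor window held at least 1 CG, as 98.1% of all windows did.

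Split at this ratio, receptor genes lay below all genes among CpG-rich promoters and above them among CpG-poor ones for the A lists, and above all genes in both classes for RNF2 of list B. Among CpG-rich promoters, RNF2 of list A was at 26 of 41 receptor genes (63.4%), against 75.2% of all such genes, and among CpG-poor promoters at 12 of 36 (33.3%), against 24.6%. RNF2 of both lists was at 15 CpG-rich receptor genes (36.6%), against 27.6%, and at 8 CpG-poor ones (22.2%), against 8.91%. For RNF2 of list B alone the CpG-rich share was 17 of 41 (41.5%), against 28.7%, and the CpG-poor share 8 of 36 (22.2%), against 9.59%. RING1 of list A was at 20 CpG-rich receptor genes (48.8%), against 61.3%, and at 13 CpG-poor ones (36.1%), against 19.5%. RING1 of list B was at 0 of either kind, against 1.54% and 0.627%. HTR2C and CHRM2, whose sequences are printed above, are among the CpG-poor genes with RNF2 in both lists, at 0.519 and 0.572. DRD5 (0.760) is CpG-rich and had no peak.

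**Figure D5:**
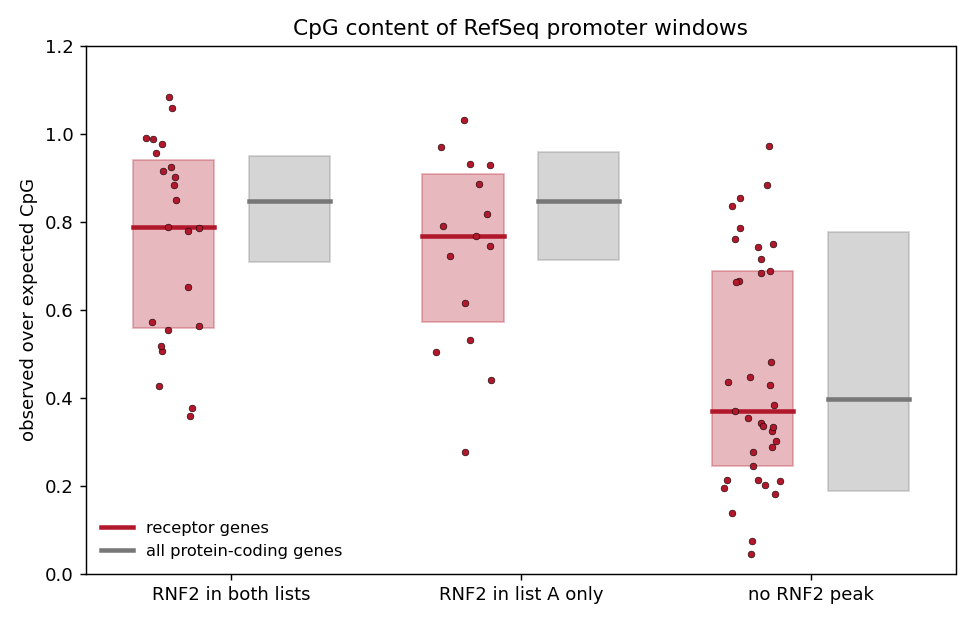
Observed over expected CpG in the promoter window (y axis) is plotted for genes with RNF2 in both lists, in list A only and in neither (x axis); red points are receptor genes, boxes span the middle quartiles and thick lines are medians, with receptor genes in red and all protein-coding genes in grey. The medians of receptor genes are 0.788, 0.769 and 0.369, and the points of the 3 groups overlap.

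Other genes of transmitter signalling and other channel genes give the setting. Of 65 listed genes of transmitter synthesis, transport and receptor partners, RING1 was at 35 in list A (53.8%, against 45.6% of all genes) and at 2 in list B (3.08%, against 1.32%). RNF2 was at 43 of them in list A (66.2%, against 56.1%), at 18 in list B (27.7%, against 21.7%) and at 16 in both (24.6%, against 20.8%). GAD2 and SLC32A1, which make GABA and load it into vesicles, were the 2 genes in all 4 lists, with RNF2 fold enrichments of 10.7 and 7.56 in list A and of 5.21 and 5.85 in list B. GAD1, the other GABA-synthesising enzyme, had 12.03 and 3.75, with an RNF2 peak of 11558 bp in list A. Those values in list A lie above every receptor gene for GAD1 and GAD2. Of 14 monoamine genes 5 had RNF2 in list A (35.7%, against 56.1% of all genes), 5 had RING1 in list A (35.7%, against 45.6%), and 1, DBH (3.75), had RNF2 in list B (7.14%, against 21.7%). TH, TPH1, TPH2 and DDC had no peak. SLC17A7, a vesicular glutamate transporter gene, had 5.98 and 4.44, and SHANK1, a postsynaptic scaffold gene, had 8.13 and 5.61.

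Potassium channel genes had RNF2 at 57 of 95 members in list A (60%) and at 28 in list B (29.5%), and calcium and sodium channel genes at 26 of 40 (65%) and 11 (27.5%). The CACNG genes among the receptor partners above were also counted as calcium channel genes, so these 2 groups overlap. RING1 was at 48 and 20 of the channel genes in list A (50.5% and 50%, against 45.6% of all genes). In list B it was at 0 potassium channel genes and 1 calcium or sodium channel gene (2.5%, against 1.32% of all genes). Set beside these, receptor genes had 49.0% for RNF2 in list A and 34.6% in list B, and all protein-coding genes 56.1% and 21.7%. None of these differences was tested.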

How the data were processed

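CUT&RUN was run on wild-type H9-derived neural progenitor cells with antibodies against RING1 and RNF2. Per the submitters' processing notes, the build was hg38 and the tools were MACS2 2.2.9.1, deepTools 3.5.2, BWA 0.7.17, Picard 2.8.1, SAMtools 1.9 and bedtools 2.30.0. No settings are given in the sources used here. The 4 deposited broad peak lists, A and B for each antibody, give each peak's fold enrichment (a ratio to background) and its −log10 q, both made by the authors. Sequencing depth is not given, so no interval could be made.

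Peaks of chromosomes X, Y and 1 to 22 were joined to 20033 protein-coding genes (RefSeq, GRCh38.p14) with Python 3.11.15, pandas 2.3.3 and numpy 2.4.6; at least 1 bp within 2 kb of a gene end counted. The overlap was checked on simulated peaks. Observed over expected CpG is the count of CG times the window length over the product of C and G; CG reads the same on both strands. CpG-rich means 0.6 or more. No p-value was computed: comparisons of genes are descriptions, and lists A and B are not stated to be separate cultures. Genes named with values were, per class, up to 3 with the highest RNF2 values (the smaller of lists A and B, then list A), the 3 widest peaks per list, those with RNF2 in list B only, and up to 3 without peaks; further genes were named after their values were seen. The members and lists were chosen with earlier results of these data known. Alternatives were the window, the gene body, the RefSeq start alone, a q threshold, lists of equal length, chromosomes 1 to 22, 1 gene per shared peak, the peak nearest a gene end, and leaving out list A or B. Some genes are counted but not reported here by name. IgG and H2AK119ub1 libraries and edited genotypes were not analysed here.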

Additional observations from a re-analysis of the deposited data

How the results depend on the processing

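The number of receptor genes with a peak stayed within 1.5 times of the reported count under the 1 kb window, the gene body, chromosomes 1 to 22 and 1 gene per shared peak, for every list and combination counted. With only peaks of −log10 q of at least 5, RING1 of list A was left at 2 receptor genes, RNF2 of list A at 7, RNF2 of list B at 1, RNF2 of both lists at 1, and RING1 with RNF2 of list A at 1. The single lists then held 1.92%, 6.73% and 0.962% of receptor genes, against 7.96%, 15.7% and 2.56% of all genes. With each list held to its 659 most significant peaks, the counts were 0 for RING1 of list A, 1 for RNF2 of list A, 1 for RNF2 of list B, 1 for RNF2 of both lists, and 0 for RING1 with RNF2 of list A; the single gene was HTR2C. The single lists then held 0%, 0.962% and 0.962% of receptor genes, against 3.70%, 3.91% and 3.55% of all genes, so under both settings RNF2 of list B lay below the background instead of above it; the cause was not tested. Under the 5 kb window RING1 of list B reached 1 receptor gene, GRIK5 (0.962%, against 1.59% of all genes). Within 2 kb of the RefSeq promoter start alone, which 77 genes have, RNF2 of list B was at 23. The share of all genes at the promoter start is not given here, so this count has no background. The same holds for the counts above that combine lists. RING1 with RNF2 was at 0 in list B. For RNF2 in both lists, leaving out list A or B gave 36 to 51 receptor genes. Taking the peak nearest a gene end moved 1 class median, the muscarinic RNF2 width in list B, to 1095 bp (reported 2784 bp), by more than the SD between the medians of lists A and B (1124 bp); the other 51 class medians moved by less than theirs or not at all. Depth is unknown, so a missing peak is not an absence of the protein. No paired analysis was possible because the counts come from no test, and the number that lists of both antibodies share is in no label.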
